A study of Rattus norvegicus with 6 samples.

Results

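The genes described here encode subunits of the receptors for gamma-aminobutyric acid (GABA), and they were followed in the pituitary gland of adult rats. There were 7 of them among the 33294 gene symbols of the count files, matched by symbol: Gabra2, Gabra3, Gabra4, Gabrb1 and Gabrb2 for the GABA A receptor, and Gabbr1 and Gabbr2 for the GABA B receptor. All 7 had enough counts to be tested. Gabra2, Gabra3 and Gabra4 were chosen by their difference between nicotine and control in these same libraries, since the study named them for it, and that difference is therefore given for them as a description without a test. The study did not name the other 4 for a change.

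The nicotine group consisted of 3 male Sprague-Dawley rats, 11 weeks old, whose dams had carried an osmotic pump with nicotine tartrate (labelled 6 mg/kg per day) placed in pregnancy. The control group consisted of 3 males of the same age and strain whose dams had carried a pump with sterile saline. The pumps were rated to run past the birth, and the labels do not say which rats shared a litter, so that p-values measure the spread between these 6 libraries. Each library was made from the pituitary of 1 rat by paired-end stranded RNA sequencing.

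The libraries held 28318383 to 85977002 counts, and by the sample titles the 3 deepest included 2 from the nicotine group. The study's supplement conflicts with this, since its 2 largest read numbers are listed for control libraries. Which listing is right cannot be told here, and exchanged groups would reverse the direction of each difference. Groups follow the sample titles here, and the decreases the study named for Gabra3 and Gabra4 have that direction. The tissue label was checked against marker genes, because the extraction protocol deposited with the samples describes testis. The summed level of the somatotroph and lactotroph genes (Gh1, Prl, Pou1f1, Drd2 and Ghrhr) lay between 78409 and 133847 CPM (each count scaled to the size of its library) in the 6 libraries, with 5 of 5 genes detected in every one. Of all libraries, nicotine replicate 2 was the furthest from the others in log2 CPM over all genes tested, at a mean distance of 90.8 against 72.0 to 80.7.

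GABA A receptors are chloride channels assembled from several subunits around a pore. The alpha subunits, with the beta subunits, form the site where GABA binds, and the kind of alpha subunit sets how the receptor responds to GABA and to drugs such as benzodiazepines. GABA B receptors are not channels but G protein-coupled receptors, built as a heterodimer in which the Gabbr1 product binds GABA and the Gabbr2 product couples to the G protein. In the pituitary, GABA arrives from hypothalamic neurons, by axons that end on the melanotrophs of the intermediate lobe and by portal blood that reaches the anterior lobe, where it is known to act on lactotrophs.

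The genes differ in where they lie and in what surrounds their start. In the RefSeq gene order of the GRCr8 assembly, Gabrb1, Gabra4, Gabra2 and the gamma subunit gene Gabrg1 lie within a few genes of each other on chromosome 14, with Cox7b2 between Gabra4 and Gabra2. Gabra3 lies on chromosome X near Gabre and Gabrq, Gabrb2 lies on chromosome 10, Gabbr1 on chromosome 20 next to Mog, and Gabbr2 on chromosome 5. The counts themselves were made on the rn7 assembly. RefSeq windows from 250 bases before to 50 bases after a gene start were found for 6 of the 7 genes, the exception being Gabra2. They are shown for the alpha subunit genes, which had opposite base composition, and for the beta subunit genes, which shared several runs of bases. Gabra3 (GRCr8 chrX:155543821-155544120, minus strand) had 0 CG dinucleotides and a GC content of 39.3%. Gabra4 (GRCr8 chr14:36944497-36944796, plus strand) had 35 CG dinucleotides and a GC content of 70.7%. Over all 33469 windows the medians were 7 CG dinucleotides and 51.7%, and 10.6% of the windows had a lower GC content than that of Gabra3, against 92.6% for Gabra4. Both are printed 5′ to 3′, with each CG in capitals.

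Gabra3: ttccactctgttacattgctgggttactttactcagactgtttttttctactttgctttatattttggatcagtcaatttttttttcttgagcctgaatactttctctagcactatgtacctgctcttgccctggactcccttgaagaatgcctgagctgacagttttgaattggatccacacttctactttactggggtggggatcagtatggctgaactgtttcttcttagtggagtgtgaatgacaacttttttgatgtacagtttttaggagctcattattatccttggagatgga

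Gabra4: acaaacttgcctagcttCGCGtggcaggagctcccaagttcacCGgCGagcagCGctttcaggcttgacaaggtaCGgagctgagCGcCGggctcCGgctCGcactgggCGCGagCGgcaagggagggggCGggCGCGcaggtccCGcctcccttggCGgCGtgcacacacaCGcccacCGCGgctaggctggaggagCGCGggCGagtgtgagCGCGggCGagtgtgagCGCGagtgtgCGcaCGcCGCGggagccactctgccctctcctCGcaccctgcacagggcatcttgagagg

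The windows of Gabrb1 (GRCr8 chr14:36902844-36903143, minus strand) and Gabrb2 (GRCr8 chr10:27439543-27439842, plus strand) had 11 and 9 CG dinucleotides. They shared 5 runs of at least 9 bases on the same strand, which are in capitals in the lines that follow. In Gabrb1, 2 of the runs overlap and appear as 1 stretch. The longest run had 11 bases, and a shared run is not particular to this pair. On either strand, Gabra4 with Gabbr1 and Gabrb2 with Gabbr1 also shared a run of 11 bases. The number of shared runs was counted for Gabrb1 with Gabrb2 alone.

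Gabrb1: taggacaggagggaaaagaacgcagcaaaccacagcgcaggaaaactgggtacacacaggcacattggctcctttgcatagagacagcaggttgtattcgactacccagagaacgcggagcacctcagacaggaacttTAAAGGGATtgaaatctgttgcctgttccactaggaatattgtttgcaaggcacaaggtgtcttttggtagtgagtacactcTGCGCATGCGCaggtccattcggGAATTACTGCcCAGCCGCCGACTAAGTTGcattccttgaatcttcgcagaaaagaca

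Gabrb2: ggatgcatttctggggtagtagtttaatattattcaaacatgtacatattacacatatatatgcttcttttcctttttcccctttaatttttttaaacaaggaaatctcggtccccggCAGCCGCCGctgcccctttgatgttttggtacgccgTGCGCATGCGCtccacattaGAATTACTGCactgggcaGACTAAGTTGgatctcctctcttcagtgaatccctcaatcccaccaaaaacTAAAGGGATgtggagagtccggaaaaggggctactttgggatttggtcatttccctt

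Counted from 1 at the 5′ end of the window, TGCGCATGCGC began at position 221 in Gabrb1 and 155 in Gabrb2, GAATTACTGC at 244 and 175, and GACTAAGTTG at 263 and 193. These 3 runs were in the same order in both genes. The other 2 were not, as TAAAGGGAT began at 139 and 244 and CAGCCGCCG at 255 and 119, and they were found in 65 (0.194%) and 363 (1.08%) of all windows. On either strand, TGCGCATGCGC was found in 200 of the 33469 windows (0.598%), GAATTACTGC in 13 (0.0388%) and GACTAAGTTG in 5 (0.0149%). These 3 were picked from the shared runs as the 2 rarest and the longest. The runs were found by comparing the windows of Gabrb1 and Gabrb2, so that both hold all 3 by construction. No other window held all 3, and nothing is read from this. TGCGCATGCGC contains GCGCATGCGC, which reads the same on both strands and is the known recognition sequence of the transcription factor NRF1; it was in 285 windows (0.852%) and, of the 6 genes with a window, in Gabrb1 and Gabrb2. A match in letters does not show that a factor binds there. The r of the log2 CPM of Gabrb1 and Gabrb2 was -0.22 over the 6 libraries and 0.32 without nicotine replicate 2. It was 0.09 over the 6 libraries after centring on the mean of each group, so that its sign is not stable. The windows of Gabbr1 and Gabbr2 had a GC content of 75.0% and 78.7% and held 32 and 47 CG dinucleotides.

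Levels are given in CPM after TMM normalization, a scaling that sets the libraries to a common depth. CPM values were compared between libraries for 1 gene at a time, and not between genes. Longer transcripts collect more reads, and exon lengths were not available here. Genes called most abundant or leading in a list had the highest mean CPM, an order that transcript length affects. The count behind a value ranged from 93, for Gabbr2 in control replicate 1, to 4688, for Gabbr1 in nicotine replicate 2, so that counting error alone was at most 10.4% of a level.

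**Figure D1:**
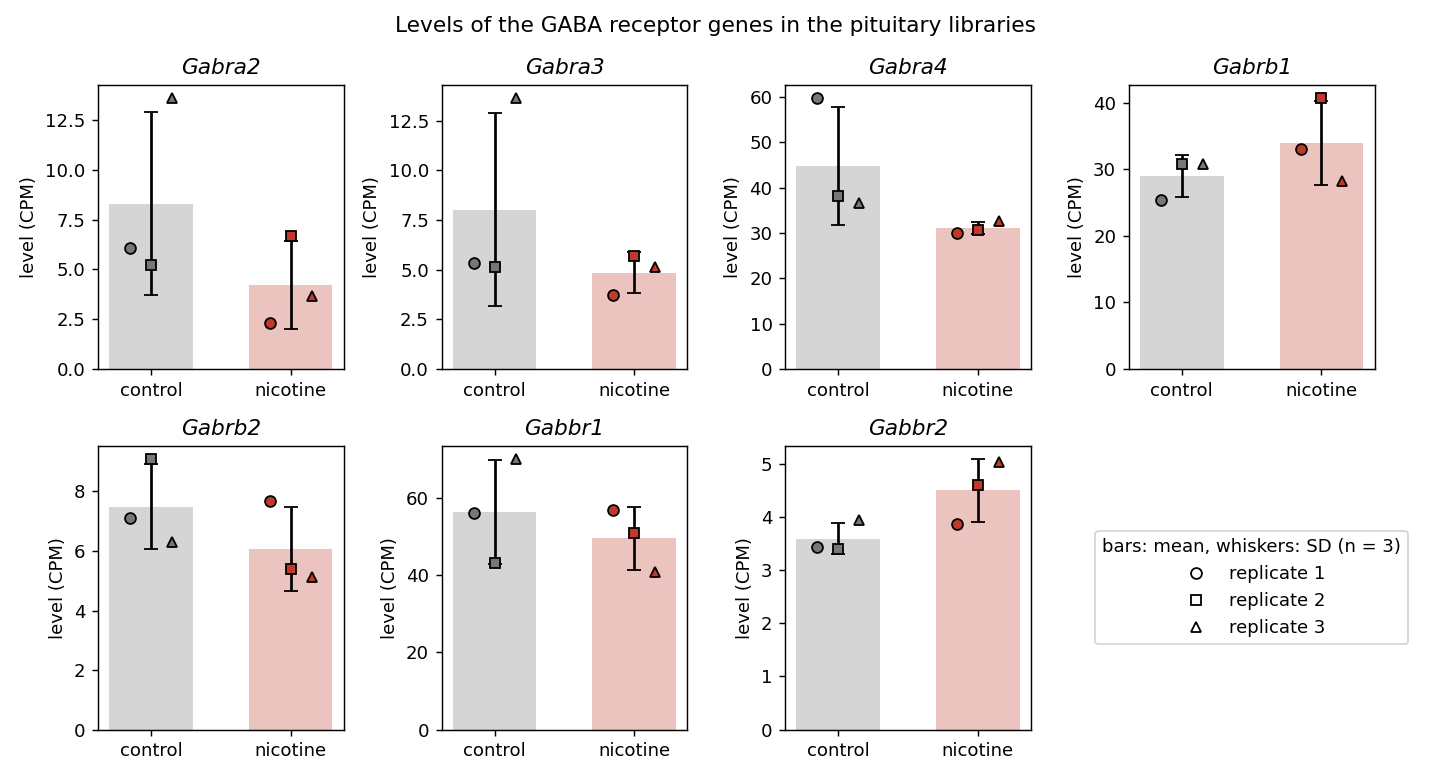
Level of each receptor gene in CPM (linear axis from 0) in the control and nicotine groups; bars are means, whiskers are SDs over 3 libraries and symbols mark replicates 1, 2 and 3. Gabra2 and Gabra3 share 1 high library, control replicate 3 at 13.6 CPM for each, and Gabra4 has its high library in control replicate 1, at 59.7 CPM.

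Gabra2 and Gabra3, which encode alpha subunits found in inhibitory synapses, varied most between libraries. Gabra2 was at 2.31, 6.67 and 3.67 CPM in nicotine replicates 1, 2 and 3 and at 6.09, 5.22 and 13.6 CPM in control replicates 1, 2 and 3. Control replicate 3 was the highest library and nicotine replicate 1 the lowest, a 5.87-fold range, and the groups overlapped. Gabra3 was at 3.71, 5.71 and 5.12 CPM in the nicotine libraries and at 5.32, 5.13 and 13.6 CPM in the control libraries. Apart from control replicate 3 the Gabra3 libraries of both groups lay within a narrow range, and the groups overlapped again.

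The libraries had the same order for Gabra2 and for Gabra3. Pearson's r of their log2 CPM over the 6 libraries was 0.92 and Spearman's rho was 1, given as a description, since the libraries share tissue makeup and depth. The r was 0.89 after centring on the mean of each group, lay between 0.91 and 0.94 with 1 library left out, and was 0.76 over the 4 libraries left without nicotine replicate 1 and control replicate 3. No other of the 21 pairs of these genes had an r over 0.8. The pair with the most negative r was Gabrb2 with Gabbr2, at -0.90 (rho -0.94, and -0.80 without control replicate 2 and nicotine replicate 3).

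Marker genes of melanotrophs, the hormone cells of the intermediate lobe, were highest in the same library as Gabra2 and Gabra3. The summed level of the 5 listed genes (Pcsk2, Drd2, Oacyl, Pax7 and Esm1, all detected in every library) was 203, 378 and 332 CPM in nicotine replicates 1, 2 and 3 and 301, 303 and 765 CPM in control replicates 1, 2 and 3. Pax7, the transcription factor that specifies melanotrophs, was at 12.5, 47.9 and 18.8 CPM in the nicotine libraries and at 18.5, 25.7 and 93.6 CPM in the control libraries. Control replicate 3 was thus the highest and nicotine replicate 2 the second highest library for Pax7 as for both subunit genes, and nicotine replicate 1 was the lowest for all 3. Oacyl stood at 201 CPM and Esm1 at 37.6 CPM in control replicate 3, against 21.2 to 69.7 CPM and 10.8 to 30.1 CPM in the other 5 libraries. Pomc, the hormone precursor gene of melanotrophs and corticotrophs, was also highest there, at 71827 CPM against 20412 to 46403 CPM, but was lowest in nicotine replicate 2. Of the other corticotroph genes measured, Tbx19 and Crhr1 were highest in nicotine replicate 2, at 85.4 and 36.3 CPM against 74.0 and 22.6 CPM in control replicate 3, where Neurod1 had its lowest level. Drd2, which lactotrophs express as well, reached 155 CPM in that library against 71.7 to 143 CPM. Control replicate 3 was also extreme for marker lists of other cells. Its summed level of erythroid (red blood cell) genes was the highest, at 16459 CPM against 3122 to 10984 CPM. Its summed level of somatotroph and lactotroph genes was the lowest, at 78409 CPM. The part of intermediate lobe content, or of other cells, in the levels of Gabra2 and Gabra3 was not tested. In bulk tissue, fewer cells of a type and less RNA per cell cannot be told apart.

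**Figure D2:**
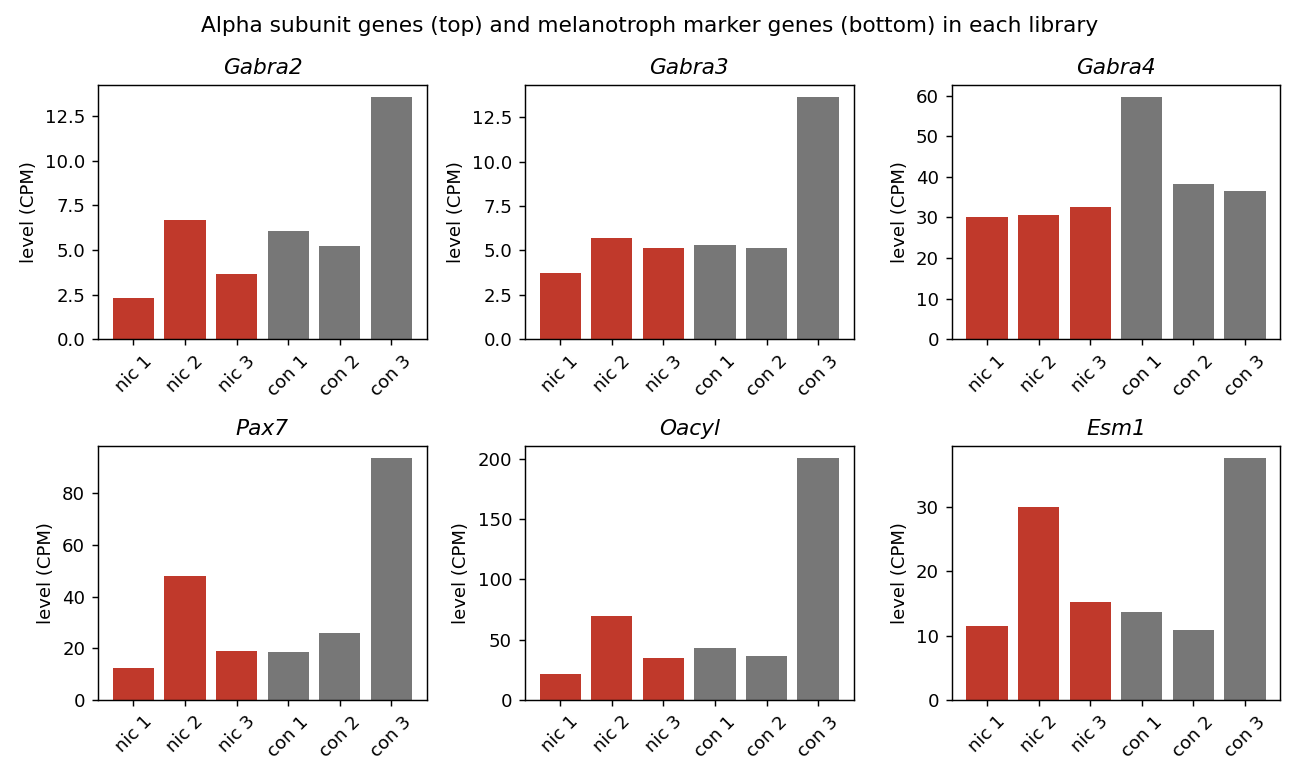
Level in CPM (linear axes from 0) of 3 alpha subunit genes in the top row and of 3 melanotroph marker genes in the bottom row, with 1 bar for each library (nic: nicotine, con: control). The bar of control replicate 3 is the tallest for Gabra2, Gabra3, Pax7, Oacyl and Esm1, while Gabra4 is tallest in control replicate 1.

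Gabra4 encodes an alpha subunit of receptors outside the synapse that are insensitive to classical benzodiazepines, and its libraries were ordered differently. It was at 30.0, 30.6 and 32.6 CPM in nicotine replicates 1, 2 and 3 and at 59.7, 38.1 and 36.5 CPM in control replicates 1, 2 and 3. The nicotine libraries were close together and all below the control libraries, among which replicate 1 stood apart. The other genes of the cluster on chromosome 14 differed from one another. Gabrg1, which lies beyond Gabra2, had all nicotine libraries below the controls as well, with 6.94, 5.84 and 7.25 CPM after nicotine and 14.6, 9.63 and 9.06 CPM in controls. The groups of Gabra2 overlapped, and so did those of Gabrb1, the receptor gene adjacent to Gabra4, which had the higher mean after nicotine and an r of -0.73 with Gabra4 over the 6 libraries. The ratio of Gabra3 to Gabra4 counts, in which transcript length is the same in every library, was 0.124, 0.187 and 0.157 after nicotine and 0.0891, 0.134 and 0.373 in controls. The control libraries held both the lowest and the highest of these ratios, the highest being that of control replicate 3.

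Beta subunits form the GABA site together with the alpha subunits. Gabrb1 was at 33.0, 40.7 and 28.2 CPM in nicotine replicates 1, 2 and 3 and at 25.4, 30.8 and 30.9 CPM in control replicates 1, 2 and 3. Nicotine replicate 2 was the highest library, and the groups overlapped. Gabrb2 was at 7.68, 5.41 and 5.12 CPM after nicotine and at 7.09, 9.08 and 6.29 CPM in controls, with overlap and with control replicate 2 as the highest library. Per library, 3.39 to 7.52 counts of Gabrb1 were found for each count of Gabrb2, with the highest value in nicotine replicate 2 and the lowest in control replicate 2.

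The GABA B genes varied less between libraries than Gabra2 and Gabra3. Gabbr1 was at 56.9, 50.9 and 40.9 CPM in nicotine replicates 1, 2 and 3 and at 56.1, 43.2 and 70.1 CPM in control replicates 1, 2 and 3, and the libraries of the groups were interleaved. Control replicate 3 was again the highest. Gabbr2 was at 3.86, 4.60 and 5.02 CPM after nicotine and at 3.43, 3.40 and 3.94 CPM in controls. For Gabbr2, 2 nicotine libraries were above all controls and nicotine replicate 1 lay within them. Over the 6 libraries the standard deviation was 16.0% of the mean for Gabbr2, 16.5% for Gabrb1, 20.0% for Gabbr1, 22.0% for Gabrb2 and 29.4% for Gabra4, against 55.8% for Gabra3 and 62.8% for Gabra2.

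To learn which of these differences followed prenatal nicotine, all 17292 genes tested went through the quasi-likelihood test of edgeR. A gene was called at the study's thresholds, an adjusted p below 0.1 with at least a 1.5-fold difference. Of the 7 genes 0 were called, against 0% of all genes tested. At an unadjusted p under 0.05 there were 2 of the 7, against 5.85% of all genes. DESeq2, the tool used by the study, called 0 of the 7 and 0.339% of the genes to which it gave an adjusted p. Of the 7, 1 (Gabra4) had all nicotine libraries below the control libraries, which held for 5.14% of all genes, and 0 of the 7 had all nicotine libraries above, against 6.12% of all genes. The members include genes chosen on this contrast, so nothing is read from these counts.

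Gabra4 averaged 31.1 ± 1.36 CPM in the nicotine libraries against 44.8 ± 12.9 CPM in the control libraries (SD, n = 3 for every mean given here). Its fitted log2 fold change was -0.53 with an SE of 0.20, and it was -0.26 without control replicate 1. The means of Gabra2 were 4.22 ± 2.23 CPM with nicotine against 8.30 ± 4.59 CPM without. Its log2 fold change of -0.97, with an SE of 0.43, came to -0.41 when control replicate 3 was left out and to -1.48 when nicotine replicate 2 was. Gabra3 averaged 4.85 ± 1.03 against 8.02 ± 4.86 CPM, and its log2 fold change of -0.72, with an SE of 0.37, came to -0.10 when control replicate 3 was left out. For both genes the difference was smallest without that library, which had the highest summed levels of both melanotroph and erythroid markers. The part of either in these differences was not tested.

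**Figure D3:**
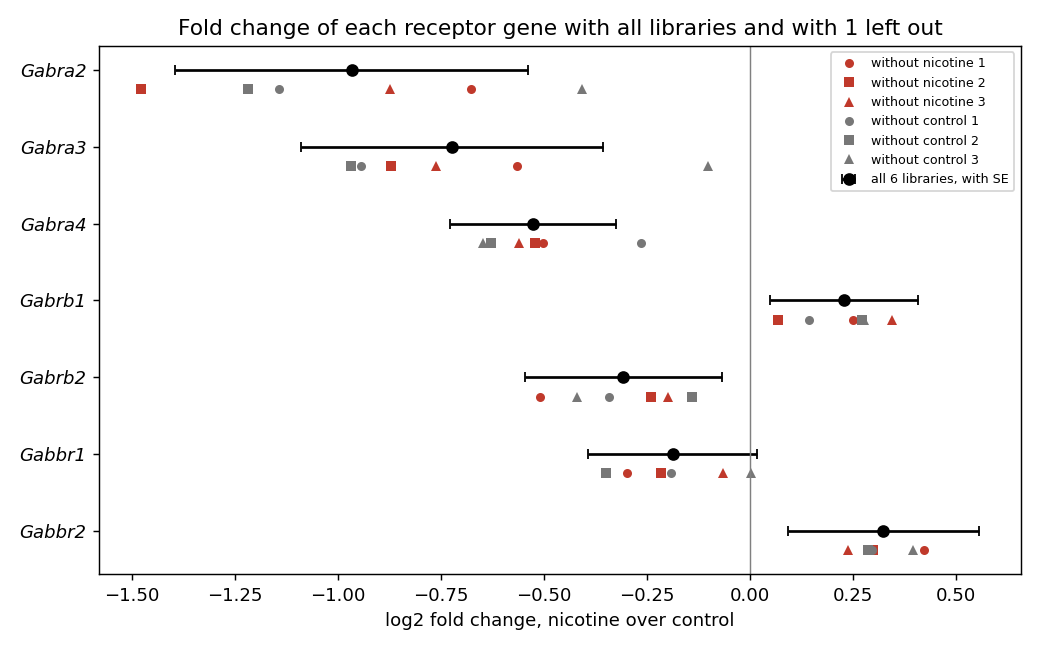
Log2 fold change, nicotine over control, of each gene from edgeR: black points with standard errors use all 6 libraries, and coloured symbols below them use 5 (red, 1 nicotine library left out; grey, 1 control library left out). Gabra3 moves from -0.72 to -0.10 without control replicate 3, while the values of Gabbr2 stay between 0.24 and 0.42.

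Of the other 4 genes, 0 were called by edgeR and 0 by DESeq2, and 0 had groups without overlap, beside the 0% and 0.339% of all genes called and the 5.14% and 6.12% without overlap. Gabrb1 averaged 33.98 ± 6.27 CPM with nicotine against 29.0 ± 3.14 CPM without, and its log2 fold change in edgeR was 0.23 with an SE of 0.18 (adjusted p = 0.857). It came to 0.07 when nicotine replicate 2 was left out. The means of Gabrb2 were 6.07 ± 1.40 against 7.49 ± 1.44 CPM, and its log2 fold change in edgeR was -0.31 with an SE of 0.24 (adjusted p = 0.854). It came to -0.14 when control replicate 2 was left out. For Gabbr1 the means were 49.6 ± 8.11 against 56.5 ± 13.4 CPM, and edgeR gave a log2 fold change of -0.19 with an SE of 0.21 (adjusted p = 0.880). It came to 0.0024 when control replicate 3 was left out. Gabbr2 averaged 4.50 ± 0.588 against 3.59 ± 0.299 CPM, and edgeR gave 0.32 with an SE of 0.23 (adjusted p = 0.852). Exact two-sided permutation tests on log2 CPM gave p = 0.4 for Gabrb1, 0.3 for Gabrb2, 0.5 for Gabbr1 and 0.2 for Gabbr2, where 3 libraries against 3 cannot give a p under 0.1.

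Other marker lists, singled out after their sums were seen to be without overlap between groups, are given beside this comparison. Of the genes of both lists 0 were called by edgeR or DESeq2. The summed level of the 8 meningeal and fibroblast genes, with Dcn and Col1a2 the most abundant, was 284 to 502 CPM after nicotine and 583 to 780 CPM in controls, without overlap, in the same direction as Gabra4. The 11 genes listed for hypothalamic axons and neurons, led by Snap25 and Tubb3, summed to 605 to 880 CPM after nicotine and 512 to 569 CPM in controls. Snap25 differed little, with means of 224 ± 5.10 against 215 ± 5.78 CPM and overlapping groups. Tubb3 averaged 107.7 ± 9.68 against 84.1 ± 3.06 CPM. Whether the counts of this list came from axons or from cells of the gland was not tested. The means of this list differed between groups in both directions. Nefl averaged 98.8 ± 50.9 against 46.6 ± 3.39 CPM, Avp 66.2 ± 54.6 against 13.9 ± 16.1 CPM and Oxt 46.1 ± 24.1 against 15.6 ± 14.4 CPM. Stmn2 averaged 19.5 ± 1.92 against 23.3 ± 1.47 CPM and Gap43 13.6 ± 2.12 against 25.8 ± 18.1 CPM. The groups of Nefl and Gap43 overlapped, and those of Tubb3, Avp, Oxt and Stmn2 did not. Of the 11 genes, 3 had all nicotine libraries above the controls and 1 below, against 6.12% and 5.14% of all genes. All genes of both lists were detected in every library. Their part in the values of the receptor genes was not tested.

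The remaining genes of GABA reception were described by lists. Of 14 other GABA receptor subunit genes, 10 were tested and 4 had too few counts, with 0 to 34 per library. Of those tested 5 had a higher and 5 a lower level after nicotine, with a median log2 fold change of 0.08 against 0.01 over all genes, and 0 were called by edgeR or DESeq2 (2 at an unadjusted p under 0.05 in edgeR). The nicotine libraries were all below the control libraries for 3 of the 10, 1 of them Gabrg1, against the 5.14% of all genes. The summed level of the 14 genes was 137 to 146 CPM after nicotine and 155 to 163 CPM in controls, without overlap. This sum is given after its values were seen, and genes with the most counts weigh most in it. For Gabrg1, edgeR gave a log2 fold change of -0.73 with an SE of 0.23 (adjusted p = 0.807). Gabre and Gabrq, which lie near Gabra3, had log2 fold changes of 0.20 and 0.18, with SEs of 0.25 and 0.21, both with overlapping groups.

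Genes that anchor and carry GABA A receptors were represented by 18 genes, all tested. There were 12 with a higher and 6 with a lower level after nicotine, with a median log2 fold change of 0.05, and 0 were called by edgeR or DESeq2 (2 at an unadjusted p under 0.05 in edgeR, against 5.85% of all genes). The most abundant were Gabarap, which links receptors to microtubules and membrane traffic, with means of 589 ± 33.3 CPM with nicotine against 585 ± 80.3 CPM without, and its relatives Gabarapl1 and Gabarapl2. Their log2 fold changes were 0.01, -0.01 and -0.20, with overlapping groups for all 3. All nicotine libraries were above the controls for 3 of the 18 genes, against 6.12% of all genes. These were Nsf, Trak1 and Clptm1, named after their values were seen, with log2 fold changes of 0.61, 0.46 and 0.27.

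Of 15 partners and effectors of GABA B receptors, among them G protein subunits, inwardly rectifying potassium channels and the Kctd auxiliary subunits, 6 were higher and 9 lower, with a median of -0.10. Again 0 were called by edgeR or DESeq2 (1 at an unadjusted p under 0.05 in edgeR). Gnai2, an inhibitory G protein alpha subunit, was the most abundant, with means of 432 ± 70.2 CPM with nicotine against 358 ± 9.13 CPM without. All its nicotine libraries were above the controls, and edgeR gave a log2 fold change of 0.27 with an SE of 0.18 (adjusted p = 0.852). Gnai1, a related inhibitory alpha subunit gene named after its values were seen, had all nicotine libraries below the controls, with means of 22.0 against 27.6 CPM, and edgeR gave -0.33 with an SE of 0.16 (adjusted p = 0.839). The list thus held 1 gene above and 1 below without overlap among 15, beside 6.12% and 5.14% of all genes. Atf4 and Gnai3 came after Gnai2 in abundance, with log2 fold changes of -0.18 and -0.10.

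Chloride transporters set whether an open GABA A channel lets chloride in or out. Of 6 tested, 4 were higher and 2 lower, with log2 fold changes from -0.03 to 0.37, and 0 were called by edgeR or DESeq2 (0 also at an unadjusted p under 0.05). Slc12a2, which carries chloride into cells, was the most abundant, with means of 81.8 ± 13.2 against 80.6 ± 12.8 CPM. Slc12a7 and Slc4a3 had log2 fold changes of 0.37 and 0.28.

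The genes whose log2 CPM most resembled each member over the 6 libraries were looked up among 14506 genes with a mean of at least 1 CPM. With 6 points and so many genes, high values are found for every member, and they are given as a description. For Gabra3 they were Lpl, Lat and Sertm2, each with an r of at least 0.99, and all 3 were highest in control replicate 3, Lpl at 38.04 CPM against 8.97 to 13.6 CPM elsewhere. For Gabra2 they were Ap4e1, Rgs19 and Stk39 (r 0.99, 0.99 and 0.99), and for Gabra4 they were Ly6d, Shld2 and Mat2b (r 0.99, 0.99 and 0.99). Ly6d, like Gabra4, was highest in control replicate 1, at 10.9 CPM against 1.65 to 3.35 CPM. For Gabrb1 they were Gtpbp1, Zc3hav1 and Kpna6, and for Gabrb2 they were Insig1, Bzw1 and Nr4a3. For Gabbr1 they were Jade1, Trnt1 and Dnajc12, and for Gabbr2 they were Lrig3, Selenoo and Unk.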

How the data were processed

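Pituitary RNA of 6 rats was sequenced, with 1 library per rat. The deposited values are raw counts per gene symbol. Per the labels and the study's methods, the authors mapped 100-base paired-end reads to rn7 with HISAT2 2.1.0 and counted them with FeatureCounts on the UCSC ncbiRefSeq annotation. Strand setting, multimapping and whether reads or pairs were counted are not given in the sources used here. Calculations used R 4.3.3, edgeR 4.0.16, limma 3.58.1 and DESeq2 1.42.0. filterByExpr kept 17292 of 24546 genes with a count. Groups came from the sample titles and were compared without a covariate. The read numbers by group in the study's supplement do not match these groups. edgeR's quasi-likelihood p-values were adjusted by Benjamini-Hochberg over all genes tested. Log2 CPM used a prior count of 2. The steps were tested on simulated data.

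The members and gene lists were chosen with earlier results of these data known. The naming rule covered the members, the 3 most abundant genes of each GABA list, the 3 most similar genes per member and the leading markers. Markers described one by one, other than the leading genes of a list, were chosen after their values were seen. Some genes of the receptor list are counted but not reported here by name. Levels per transcript length and shares of alpha subunits were planned but not computed, since exon lengths were not given, and count ratios were used instead.

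Same-numbered libraries deviated from their group means with correlations of 0.03, -0.20 and -0.08. The labels do not say whether the numbers pair the rats, and these correlations cannot exclude a shared litter or batch. Results were recomputed with DESeq2, with RLE scaling or unscaled library sizes, with other limits on low counts (none, or 10 in each library), after thinning all libraries to the smallest, without genes above 1% of the counts, at a stricter adjusted p of 0.05, with a replicate block, and with each library omitted.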

Additional observations from a re-analysis of the deposited data

How the results depend on the processing

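Of the 7 receptor genes 0 were called under every alternative run. Among the 4 genes not chosen by this difference, the log2 fold changes of Gabrb1, Gabrb2 and Gabbr2 kept their direction in 14 of 14 alternatives each and that of Gabbr1 in 13 of 14. Gabbr1 ranged from -0.35 to 0.0024 with 1 library left out, the latter without control replicate 3 (adjusted p = 0.999 from edgeR). Over the edgeR alternatives the adjusted p of these 4 genes ranged from 0.596 to 0.999. Over all genes the number of calls was 0, and it was 61 with DESeq2, 30 without a filter, 1 with library sizes alone, and 1 when each library had to hold 10 counts or more. With the replicate number as a block it was 2. With 1 library left out it ranged from 0 to 4, at 4 without control replicate 2 and 1 without nicotine replicate 2. The causes were not tested. Pairs of members with an r over 0.8 numbered 1 with all libraries and 1 to 3 with 1 left out, reaching 3 when nicotine replicate 1 was omitted and 2 when nicotine replicate 3 was. The smallest adjusted p over all genes was 0.103. Other settings for subunit shares and levels per length were not run, because exon lengths were not available here.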
